A study of Mus musculus with 12 samples.

Results

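The phagocyte NADPH oxidase and the enzymes that remove superoxide and hydrogen peroxide were examined through 9 genes, named by symbol. Of these, 5 encode parts of the oxidase (Cybb, Cyba, Ncf1, Ncf4 and Rac2) and 4 encode removal enzymes (Sod1, Sod2, Cat and Gpx1). They were 9 of the 32301 genes or transcripts on the array and were covered by 12 probes, each of them above background on 12 of 12 arrays, so every member passed the filter on dim probes and was tested.

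The cells were bone-marrow-derived macrophages (BMDMs), grown from marrow with the macrophage growth factor M-CSF. They came from 8-week-old mice of 2 genotypes, wild type (WT) and Keap1 CKO (KpCKO), whose floxed Keap1 alleles are deleted by a Cre recombinase under the myeloid LysM promoter, both on the C57BL/6 strain. The cells were left untreated (Con), or given LPS and IFNγ (M1) or IL-4 (M2) for 6 h. The labels give no time for the Con cells. Total RNA was measured on 12 one-colour arrays, in 6 groups of 2, and culture 1 came from male and culture 2 from female mice, with 1 mouse of each genotype per culture giving its Con, M1 and M2 cells. The labels give neither a floxed allele nor Cre for the WT mice, so the presence of Cre and the loss of Keap1 cannot be told apart.

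Cybb (gp91phox) and Cyba (p22phox) form the membrane-bound catalytic core of the oxidase, which passes electrons from NADPH to oxygen and yields superoxide. Ncf1 (p47phox) and Ncf4 (p40phox) are cytosolic subunits that join the core on activation, together with the small GTPase Rac2. Superoxide dismutases turn superoxide into hydrogen peroxide, Sod1 in the cytosol and Sod2 in mitochondria, and catalase (Cat) and glutathione peroxidase 1 (Gpx1) break the peroxide down. Keap1 holds back the transcription factor Nrf2, which drives many antioxidant genes.

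A level is given below as log2 of the background-subtracted signal over the 75th percentile of its array, and levels of different genes are not compared with each other. A difference is in log2 units and is followed by its standard error (SE). A gene is said to rise, fall or be called where the adjusted p of limma, corrected over all genes tested, is under 0.05. Statements that arrays of 2 groups overlap or lie apart describe their levels. The share of all genes separated in this way was not computed. Alternative limma fits, counted with some genes below, differ in scaling, background correction, filter, probe, block or the arrays used. The methods' unpaired t-test, which the paper states for its BMDM data in general, stands apart from these counts. For the arrays, the paper instead counted genes changed over 2-fold in both independent cultures. With adjustment applied here, the t-test called Cybb, Sod2 and Gpx1 in WT M1 against Con (adjusted p = 0.046, 0.036 and 0.046). It called no member in any other comparison of 2 groups. All 4 arrays of a stimulus lay on 1 slide, so stimulus and slide cannot be told apart, whereas the genotypes were compared within a slide. The 75th percentile of the signal was 1001 to 1143 on the Con arrays, 548 to 906 on the M1 arrays and 966 to 1166 on the M2 arrays. The labels were borne out by the genes they predict. Keap1 was lower in KpCKO by −1.46 in Con, −1.71 in M1 and −1.81 in M2, and the Nrf2 target Nqo1 was higher by 3.23, 3.50 and 3.52. Nos2, not well above background in Con, exceeded its Con level at least 164-fold in WT M1 and at least 66.7-fold in KpCKO M1, and Arg1 rose by 10.38 in WT M2 and 10.48 in KpCKO M2. Of 9 macrophage markers, 8 had a probe and all 8 were above background on 12 of 12 arrays. Their summed signal, in multiples of the 75th percentile, was 612 and 667 in WT Con against 436 and 495 in KpCKO Con, 834 and 1041 in WT M1 against 563 and 663 in KpCKO M1, and 530 and 581 in WT M2 against 462 and 489 in KpCKO M2. The sum includes Lyz2, which encodes lysozyme M, and the KpCKO mice carry a Cre under the LysM locus. The share of Lyz2 in the genotype difference of the sum was not tested.

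Because LPS and IFNγ act partly through interferon-responsive elements and Nrf2 through antioxidant response elements, the 250 bases before the RefSeq start of each member (build GRCm38.p6) were searched on both strands for 3 motifs. These were the interferon-stimulated response element (GAAA repeated after 2 bases of any kind), the gamma-activated site (TTCNNNGAA) and the antioxidant response element (TGAGNNNGC or TGACNNNGC). Of 32851 RefSeq windows of this length, 2.98%, 7.02% and 23.0% held a match, respectively. Entries were found for 7 of the 9 members, leaving Ncf4 and Rac2. The 4 windows with a match are shown 5′ to 3′ on the strand of the gene, with the interferon-stimulated response element in capitals for Cybb and Ncf1, the gamma-activated site for Sod2 and the antioxidant response element for Sod1.
Cybb: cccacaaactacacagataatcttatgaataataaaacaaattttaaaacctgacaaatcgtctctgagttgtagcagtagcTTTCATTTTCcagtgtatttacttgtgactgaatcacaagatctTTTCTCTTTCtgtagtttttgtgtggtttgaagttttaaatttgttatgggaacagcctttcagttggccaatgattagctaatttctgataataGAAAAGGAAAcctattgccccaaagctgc
Ncf1: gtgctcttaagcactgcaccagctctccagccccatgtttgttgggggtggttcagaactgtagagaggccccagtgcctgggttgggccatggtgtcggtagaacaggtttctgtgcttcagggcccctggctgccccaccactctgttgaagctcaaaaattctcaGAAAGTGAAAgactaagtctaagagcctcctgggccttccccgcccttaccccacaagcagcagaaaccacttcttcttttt
Sod2: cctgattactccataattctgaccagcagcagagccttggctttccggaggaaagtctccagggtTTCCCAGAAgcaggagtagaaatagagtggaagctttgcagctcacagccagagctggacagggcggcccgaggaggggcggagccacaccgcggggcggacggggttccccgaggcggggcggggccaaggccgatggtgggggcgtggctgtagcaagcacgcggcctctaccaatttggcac
Sod1: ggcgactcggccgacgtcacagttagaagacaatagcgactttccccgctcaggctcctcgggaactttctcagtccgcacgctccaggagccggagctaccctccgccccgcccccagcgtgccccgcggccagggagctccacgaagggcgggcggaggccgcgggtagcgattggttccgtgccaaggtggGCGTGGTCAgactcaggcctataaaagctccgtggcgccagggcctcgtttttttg
The Cybb window (chrX:9469325-9469574, minus strand) held 3 interferon-stimulated response elements, beginning 168, 124 and 29 bases before the start. The Ncf1 window (chr5:134229626-134229875, minus strand) held 1, beginning 82 bases before the start, and a gamma-activated site beginning 88 bases before it that overlaps it. The Sod2 window (chr17:13007589-13007838, plus strand) held 1 gamma-activated site, 185 bases before the start, and the Sod1 window (chr16:90220512-90220761, plus strand) held 1 antioxidant response element on the opposite strand, 56 bases before the start. The windows of Cyba, Cat and Gpx1 held none of the 3. These matches are a description of the letters in the windows, and binding was not measured here.

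The stimulus comparisons address how the oxidase and the removal enzymes change when macrophages are driven to the M1 or the M2 state. In WT cells, M1 stimulation came with a rise of all 5 oxidase genes and of Sod2, and with a fall of Cat and Gpx1. In all, 8 of the 9 members were called, 6 higher and 2 lower, where 63.2% of the 22356 genes tested were called (34.5% higher and 28.7% lower), so the number of calls is in itself no mark of these genes. The median difference of the 5 oxidase genes was 0.81 and that of the 4 removal genes −0.87, beside 0.13 over all genes. Under quantile normalization the oxidase median was 0.17, with 2 of 5 called, both higher, and the removal median −1.45, beside −0.08 over all genes. The rise of Cyba and Ncf4 turned into a negative difference under quantile normalization, as given with each gene below.

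Cybb, the catalytic subunit, had levels of 4.25 and 4.53 in WT Con and 6.73 and 6.88 in WT M1. In KpCKO cells its levels were 4.09 and 4.56 in Con and 6.41 and 6.44 in M1. The M1 arrays of either genotype lay far above every Con array. The rise was 2.41 (SE 0.14, adjusted p = 2.0e-05), or 5.33-fold, in WT and 2.10 (SE 0.14, adjusted p = 5.8e-05) in KpCKO, and it was called in 15 of 15 alternative limma fits in both genotypes. A second, dimmer probe of Cybb rose by 2.77 in WT and 2.31 in KpCKO.

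Ncf1, the organizing cytosolic subunit, went from 3.30 and 3.62 in WT Con to 4.39 and 4.65 in WT M1, and from 2.94 and 3.41 in KpCKO Con to 4.13 and 4.49 in KpCKO M1. Con and M1 arrays did not overlap in either genotype. The rise was 1.06 (SE 0.12, adjusted p = 0.00029) in WT and 1.13 (SE 0.12, adjusted p = 0.00035) in KpCKO, called in 15 of 15 alternative limma fits in both, with a smallest value of 0.48 in WT. The second probe of Ncf1 rose by 1.34 and 1.16.

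Cyba, the partner of Cybb in the membrane, measured 5.67 and 5.57 in WT Con and 6.37 and 6.19 in WT M1, and 6.03 and 5.77 against 6.54 and 6.21 in KpCKO. The 2 conditions did not overlap in either genotype. The difference was 0.66 (SE 0.12, adjusted p = 0.0028) in WT and 0.48 (SE 0.12, adjusted p = 0.0146) in KpCKO, but it was −0.19 and −0.10, not called, under quantile normalization. In KpCKO the call was also lost without any 1 of 3 arrays, those of KpCKO Con in cultures 1 and 2 and of KpCKO M1 in culture 1, with adjusted p between 0.052 and 0.081.

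Ncf4, the p40phox subunit, measured 6.05 and 6.55 in WT Con and 6.71 and 6.94 in WT M1, and 5.85 and 6.34 against 6.59 and 6.65 in KpCKO. The M1 arrays were above the Con arrays, although the 2 cultures of Con differed by about as much as the conditions. The difference was 0.52 (SE 0.13, adjusted p = 0.0115) in WT and 0.53 (SE 0.13, adjusted p = 0.0141) in KpCKO, turning to −0.36 and −0.05 under quantile normalization. It was called in 8 of 14 alternative limma fits in either genotype, and was lost without culture 1 of Con or of M1 (adjusted p between 0.059 and 0.084 in WT and 0.080 and 0.090 in KpCKO).

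Rac2, the GTPase of the assembled oxidase, measured 3.90 and 4.11 in WT Con and 4.55 and 5.07 in WT M1, a rise of 0.81 (SE 0.11, adjusted p = 0.00069) that became 0.17 (adjusted p = 0.22) under quantile normalization. In KpCKO it measured 4.03 and 4.31 in Con and 4.29 and 4.67 in M1, which overlap. That difference of 0.31 was not called (adjusted p = 0.051), whereas the second Rac2 probe gave 0.37 and was called (adjusted p = 0.025).

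**Figure D1:**
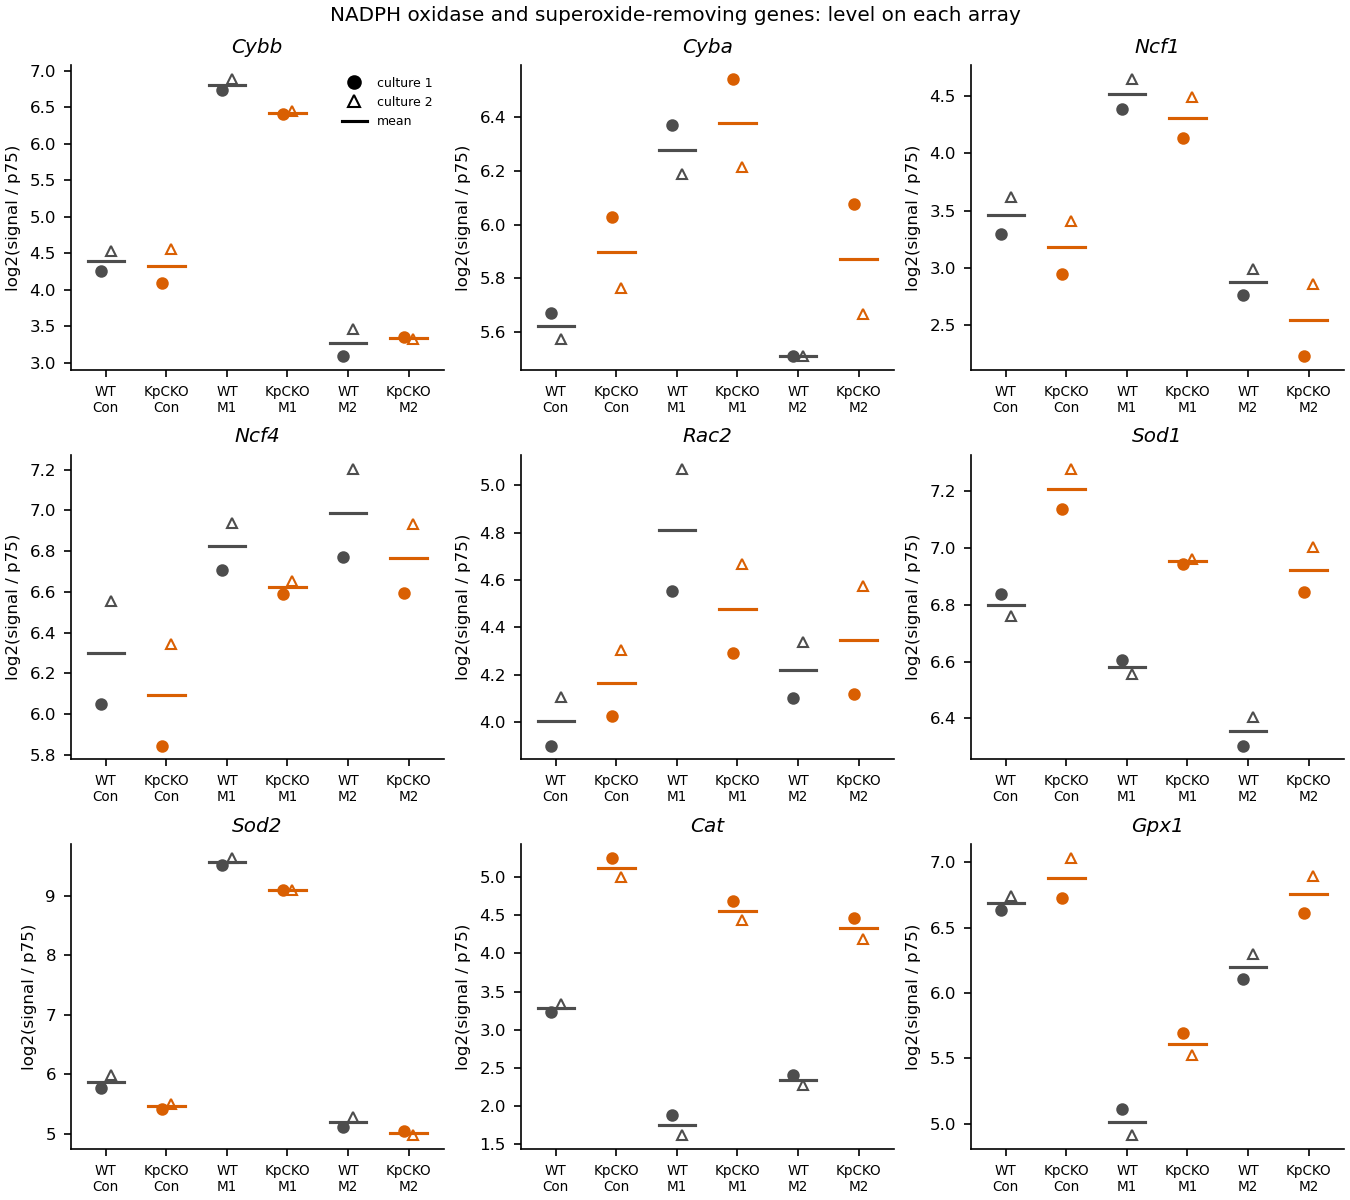
Level of each gene on each array (log2 signal over the 75th percentile of the array, own axis per gene) in WT (grey) and KpCKO (orange) cells, with culture 1 as filled circles, culture 2 as open triangles and the mean as a line. Cat was higher on every KpCKO array than on every WT array, and Cybb, Ncf1 and Sod2 were higher on every M1 array than on every Con and M2 array.

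The removal enzymes moved in opposite directions in M1 cells. Sod2, the mitochondrial dismutase, measured 5.77 and 5.98 in WT Con and 9.52 and 9.63 in WT M1, and 5.43 and 5.50 against 9.09 and 9.09 in KpCKO. The M1 arrays lay far above the Con arrays in both genotypes. Sod2 rose by 3.70 (SE 0.10, adjusted p = 3.2e-06), or 13.0-fold, in WT and by 3.63 (SE 0.10, adjusted p = 5.2e-06) in KpCKO, and only 2.35% and 1.64% of genes had a larger difference. Its smallest value over 14 alternative limma fits was 2.73 in WT and 3.19 in KpCKO, and it was called in all of them.

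Catalase measured 3.23 and 3.33 in WT Con and 1.89 and 1.62 in WT M1. In KpCKO it measured 5.25 and 5.00 in Con and 4.68 and 4.44 in M1. Con and M1 were apart in both genotypes, with the wider gap in WT. The fall was −1.53 (SE 0.12, adjusted p = 5.5e-05) in WT and −0.56 (SE 0.12, adjusted p = 0.0071) in KpCKO. The KpCKO value was not called after normexp background correction (adjusted p = 0.063).

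Gpx1 measured 6.64 and 6.74 in WT Con and 5.11 and 4.91 in WT M1, and 6.72 and 7.03 against 5.69 and 5.52 in KpCKO. Every M1 array was below every Con array. The fall was −1.68 (SE 0.16, adjusted p = 0.00012) in WT and −1.27 (SE 0.16, adjusted p = 0.00062) in KpCKO, called in 14 of 14 alternative limma fits in both. Sod1, the cytosolic dismutase, measured 6.84 and 6.76 in WT Con against 6.61 and 6.55 in WT M1, and 7.14 and 7.28 against 6.94 and 6.96 in KpCKO. Its differences of −0.22 and −0.26 (SE 0.10 each) were not called (adjusted p = 0.097 and 0.073). Under quantile normalization, however, Sod1 was called lower in both genotypes, at −1.08 in WT (adjusted p = 0.00022) and −0.78 in KpCKO (adjusted p = 0.0014). The sign of Sod2, Cat and Gpx1 stayed as given in that fit.

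In KpCKO cells 7 of the 9 members were called between M1 and Con, 5 higher and 2 lower, where 50.2% of 22362 genes were called (24.8% higher and 25.4% lower). The median difference was 0.53 for the oxidase genes and −0.41 for the removal genes, beside 0.03 over all genes. Under quantile normalization the oxidase median turned to −0.05, with 2 of 5 called higher, and the removal median was −0.90, with 1 higher and 3 lower, beside −0.06 over all genes. The calls of WT and KpCKO differed only at Rac2.

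IL-4 went with another pattern. In WT cells 6 of the 9 members were called between M2 and Con, 1 higher and 5 lower, where 16.8% of 22366 genes were called (8.62% higher and 8.20% lower). In KpCKO cells 5 were called, 1 higher and 4 lower, where 10.2% of genes were called (5.66% higher and 4.53% lower). The medians were −0.11 and −0.03 for the oxidase genes and −0.58 and −0.37 for the removal genes, in WT and KpCKO, while those over all genes were −0.01 and 0.01. M1 and M2 were each compared with the same Con arrays, so their differences from Con are not independent.

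Within the oxidase, the M2 differences were split. Cybb measured 3.09 and 3.46 in M2 cells of WT and 3.35 and 3.32 in those of KpCKO, below all Con arrays. It fell by −1.12 (SE 0.14, adjusted p = 0.0045) in WT and −0.99 (SE 0.14, adjusted p = 0.0105) in KpCKO. The KpCKO call was lost without culture 2 of Con or of M2 (adjusted p between 0.070 and 0.075).

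Ncf1 measured 2.76 and 2.99 in WT M2 and 2.23 and 2.86 in KpCKO M2, again below the Con arrays of the same genotype. It fell by −0.59 (SE 0.12, adjusted p = 0.0207) in WT and −0.64 (SE 0.12, adjusted p = 0.0237) in KpCKO. The WT call was lost without any 1 of its 4 arrays (adjusted p between 0.067 and 0.14), and the KpCKO call without either Con array or culture 1 of M2 (adjusted p between 0.089 and 0.14).

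Ncf4 was the member that went the other way, at 6.77 and 7.20 in WT M2 and 6.60 and 6.93 in KpCKO M2, above the Con arrays. It rose by 0.69 (SE 0.13, adjusted p = 0.0164) in WT and 0.67 (SE 0.13, adjusted p = 0.0263) in KpCKO, and both calls were lost without any 1 of the 4 arrays (adjusted p between 0.068 and 0.12 in WT and 0.094 and 0.14 in KpCKO). Cyba measured 5.51 in both cultures of WT M2 and 6.08 and 5.67 in KpCKO, and Rac2 measured 4.10 and 4.34 against 4.12 and 4.57 in KpCKO. Neither was called in either genotype.

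Among the removal enzymes, Cat measured 2.41 and 2.27 in WT M2 and 4.46 and 4.19 in KpCKO M2, below the Con arrays of the same genotype. It fell by −0.94 (SE 0.12, adjusted p = 0.0043) in WT, which was called in 14 of 14 alternative limma fits. In KpCKO it fell by −0.80 (SE 0.12, adjusted p = 0.0118), a call lost without any 1 of the 4 arrays (adjusted p between 0.051 and 0.080).

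Sod2 measured 5.12 and 5.28 in WT M2 and 5.05 and 4.98 in KpCKO M2, below the Con arrays, and fell by −0.68 (SE 0.10, adjusted p = 0.0076) in WT and −0.45 (SE 0.10, adjusted p = 0.0383) in KpCKO. The WT call was lost without culture 2 of Con or culture 1 of M2 (adjusted p between 0.060 and 0.071) and the KpCKO call without any 1 of the 4 arrays (adjusted p between 0.083 and 0.21). Sod1, at 6.30 and 6.40 in WT M2, fell by −0.45 (SE 0.10, adjusted p = 0.0279) in WT, which was lost without any 1 of the 4 arrays (adjusted p between 0.093 and 0.19). In KpCKO M2 Sod1 measured 6.84 and 7.00, a difference of −0.29 that was not called (adjusted p = 0.13). Gpx1 measured 6.11 and 6.30 in WT M2 and 6.61 and 6.89 in KpCKO M2, and neither −0.49 (adjusted p = 0.077) nor −0.13 (adjusted p = 0.66) was called.

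**Figure D2:**
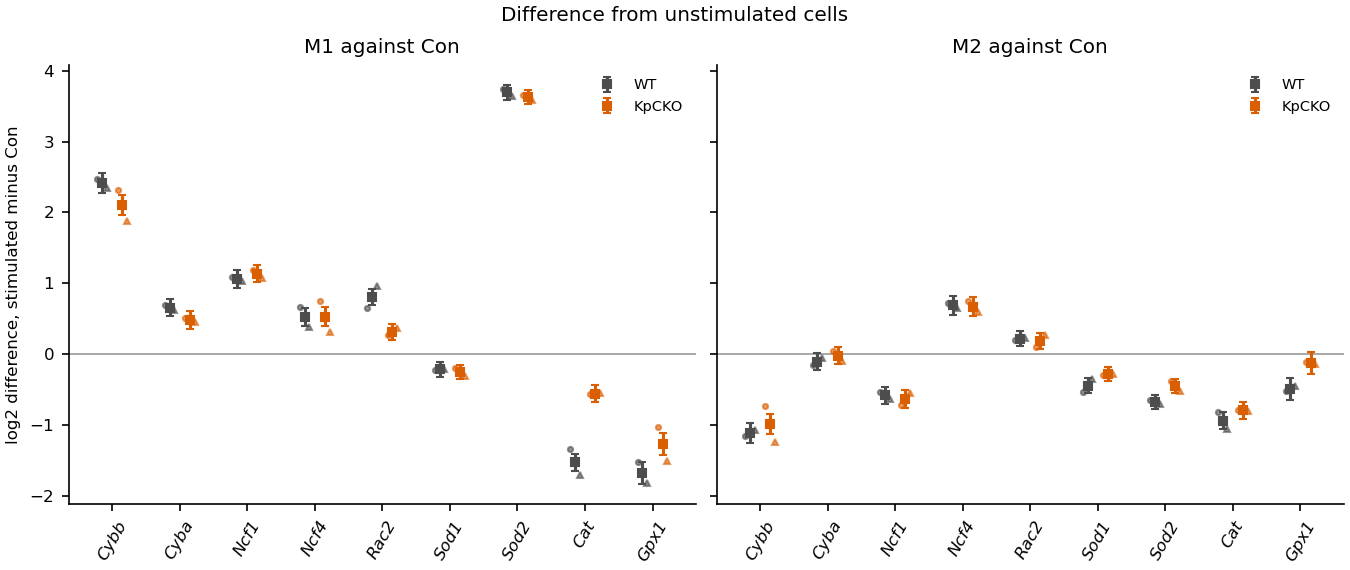
Difference between M1 or M2 cells and Con cells of the same genotype (log2 units) for each gene, in WT (grey) and KpCKO (orange). Squares are the fitted difference with its SE, circles culture 1 and triangles culture 2. Sod2 and Cybb had the highest M1 values in both genotypes, and Cat and Gpx1 lay below 0 in M1 with the KpCKO value nearer to 0.

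The genotype comparisons address how loss of Keap1 bears on the same genes under each stimulus. Catalase stood apart: it was higher in KpCKO under all 3 stimuli, and its 6 KpCKO arrays (4.19 to 5.25) all lay above its 6 WT arrays (1.62 to 3.33). In Con, Cat was higher by 1.84 (SE 0.12, adjusted p = 0.0012), or 3.58-fold. It was the only member called there, where 2.21% of 22367 genes were called (1.39% higher and 0.827% lower). In M1 the difference was 2.81 (SE 0.12, adjusted p = 0.00018), or 7.00-fold, and in M2 it was 1.99 (SE 0.12, adjusted p = 0.00089), or 3.96-fold. A larger difference was found in 0.765% of genes in Con, 0.340% in M1 and 0.559% in M2. In each of the 3 comparisons the call was kept in 13 of 14 alternative limma fits, and was lost in the one of only the 4 arrays compared (adjusted p between 0.16 and 0.18).

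Arranged by level, the Cat groups ran WT M1, WT M2, WT Con, KpCKO M2, KpCKO M1 and KpCKO Con. Of these neighbours only KpCKO M2 and KpCKO M1 overlapped. The lowest KpCKO group was thus above the highest WT group, with a gap of 1.04 between their means.

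In M1 cells 4 members were called between the genotypes, 3 higher and 1 lower in KpCKO, where 16.0% of 22354 genes were called (7.41% higher and 8.59% lower, or 1657 and 1921 genes against 2030 and 1352 under quantile normalization). All 4 were removal enzymes, and their median was 0.48 beside −0.09 over all genes. Besides Cat, Gpx1 was higher by 0.59 (SE 0.16, adjusted p = 0.0451) and Sod1 by 0.37 (SE 0.10, adjusted p = 0.0499), and Sod2 was lower by −0.48 (SE 0.10, adjusted p = 0.0256). For each of the 3 genes the 2 KpCKO M1 arrays did not overlap the 2 WT M1 arrays. With 2 arrays a group such a separation also occurred without a call, as for Gpx1 in M2 (adjusted p = 0.17).

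These 3 calls were less stable than that of Cat. Sod1 and Sod2 were no longer called without any 1 of the 4 arrays (adjusted p between 0.066 and 0.20 and between 0.052 and 0.11). Gpx1 was no longer called without culture 2 of WT M1 or either KpCKO M1 array (adjusted p between 0.052 and 0.22). Under quantile normalization Sod2 was at −0.04 (adjusted p = 0.82), while Sod1 was at 0.62 and Gpx1 at 0.73.

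In M2 cells Cat and Sod1 were called, both higher in KpCKO, where 1.93% of 22365 genes were called (1.28% higher and 0.644% lower). Sod1 differed by 0.57 (SE 0.10, adjusted p = 0.0456), and the 2 genotypes did not overlap. The call was lost without any 1 of the 4 arrays (adjusted p between 0.17 and 0.29). Gpx1 differed by 0.55 (SE 0.16, adjusted p = 0.17) and Sod2 by −0.19 (SE 0.10, adjusted p = 0.47), neither of them called. In Con, Sod1 differed by 0.41 (adjusted p = 0.11), Sod2 by −0.42 (adjusted p = 0.11) and Gpx1 by 0.19 (adjusted p = 0.71), also not called.

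None of the 5 oxidase genes was called between the genotypes under any of the 3 stimuli by limma on the representative probe. At an unadjusted p under 0.05 there were 0 of 5 such differences in Con, 2 of 5 in M1 and 2 of 5 in M2, beside 14.1%, 34.1% and 14.3% of all genes. The intervals show what size of difference the arrays leave room for. For Cybb, the 95% interval of KpCKO against WT was −0.41 to 0.27 in Con, −0.72 to −0.04 in M1 and −0.28 to 0.40 in M2. The second Cybb probe was lower by −0.51 in KpCKO M1 and was called (adjusted p = 0.0426), so the 2 probes fell on different sides of the threshold there. For Rac2 the interval was −0.10 to 0.42 in Con, −0.60 to −0.07 in M1 and −0.14 to 0.39 in M2. Cyba differed by 0.27, 0.10 and 0.36, Ncf1 by −0.28, −0.21 and −0.33, and Ncf4 by −0.21, −0.20 and −0.22, in Con, M1 and M2.

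**Figure D3:**
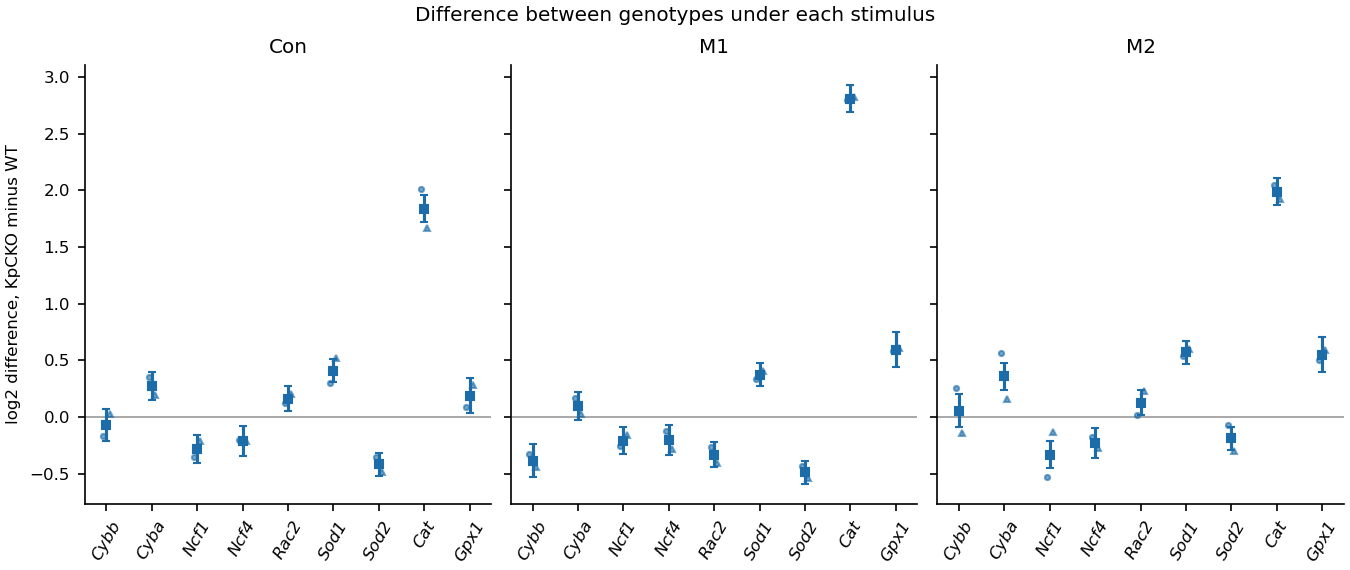
Difference between KpCKO and WT cells (log2 units) in Con, M1 and M2 for each gene. Squares are the fitted difference with its SE, circles culture 1 and triangles culture 2. Cat lay at 1.84, 2.81 and 1.99, while the other 8 genes stayed within 0.60 of 0.

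Because several small differences had the same sign under each stimulus, the mean genotype difference over Con, M1 and M2 was also fitted, a comparison added after the single ones had been seen. Each mouse contributed 3 arrays to it, so that it rests on 2 pairs of mice. It called 5 members, 3 higher and 2 lower in KpCKO, where 17.2% of 22354 genes were called (8.61% higher and 8.55% lower). Cat was higher by 2.21 (SE 0.07, adjusted p = 1.7e-05), with 0.318% of genes showing a larger difference. Sod1 was higher by 0.45 (SE 0.06, adjusted p = 0.0036) and Sod2 lower by −0.36 (SE 0.06, adjusted p = 0.0083), and both stayed called in 21 of 21 alternative limma fits. Sod1 was higher in 6 of 6 pairs of arrays, by 0.30 to 0.60, as were 11.6% of all genes. Sod2 was lower in 6 of 6, by 0.07 to 0.54 in size, as were 13.4% of all genes. These 6 pairs are the same 2 pairs of mice under 3 stimuli. The shared sign also prompted this comparison, so the sign counts are not independent evidence.

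Gpx1 was higher by 0.44 (SE 0.09, adjusted p = 0.0187), in 6 of 6 pairs. Its call was lost without any 1 of 5 arrays, both WT Con arrays, culture 2 of KpCKO Con, culture 1 of WT M2 and culture 2 of KpCKO M2 (adjusted p between 0.054 and 0.063). Ncf1, the only oxidase gene called, was lower by −0.27 (SE 0.07, adjusted p = 0.0391), in 6 of 6 pairs, but without any 1 of 11 of the 12 arrays (all but culture 2 of KpCKO M2) it was not called (adjusted p between 0.055 and 0.12). Cyba (0.24, adjusted p = 0.056), Ncf4 (−0.21, adjusted p = 0.10), Cybb (−0.13, adjusted p = 0.31) and Rac2 (−0.01, adjusted p = 0.90) were not called.

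**Figure D4:**
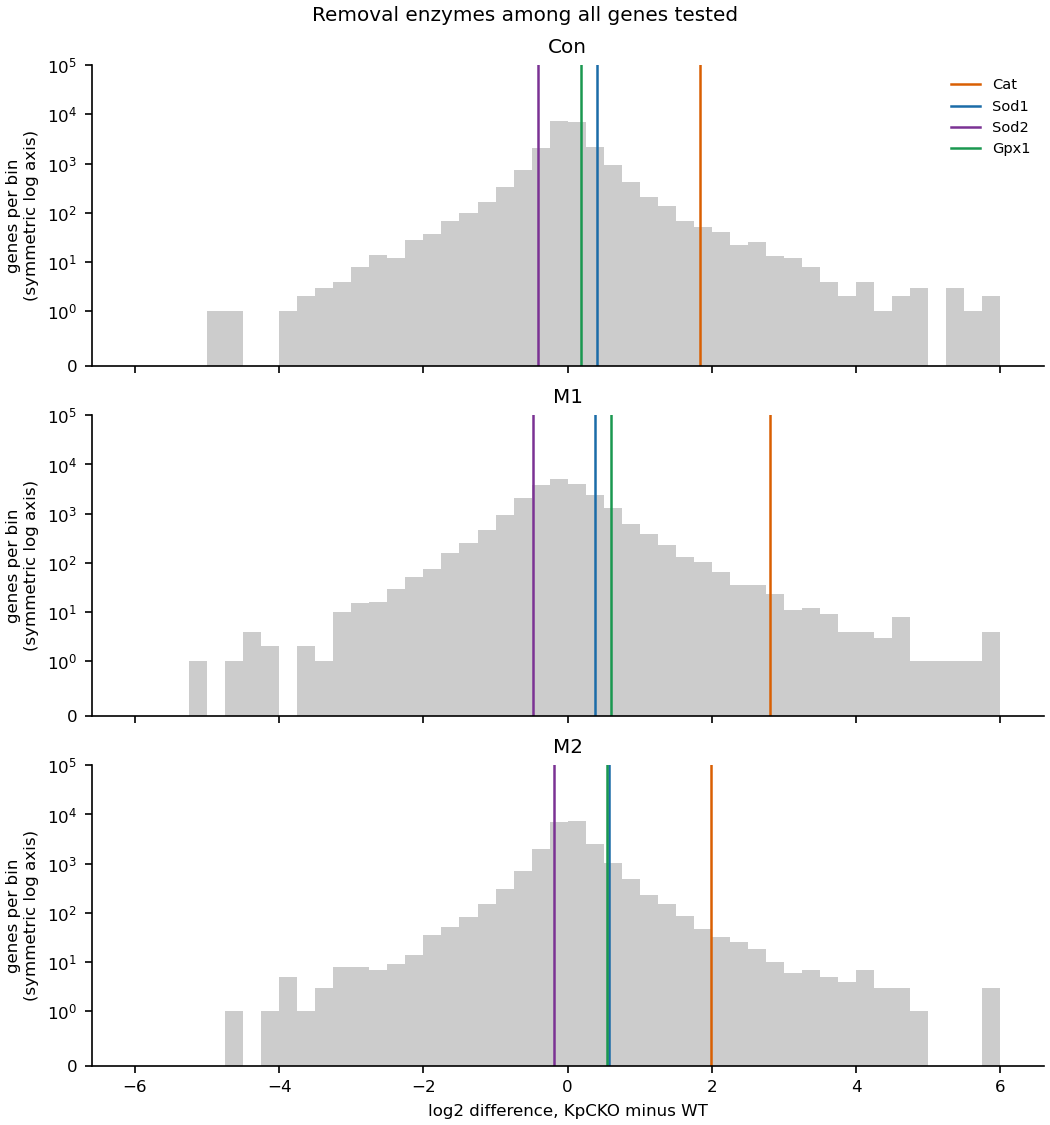
Number of genes in each bin of 0.25 log2 units of the difference between KpCKO and WT cells (symmetric log axis, values beyond 6 placed in the end bins), in Con, M1 and M2, with vertical lines at the 4 removal enzymes. Cat lay in the upper tail under each stimulus, with 0.340% to 0.765% of genes above it, and Sod1, Sod2 and Gpx1 lay in the bulk.

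Whether the stimulus response itself differed between the genotypes was tested by the difference of the 2 responses. No member was called for M1 or for M2, where 0.0716% of 22354 and 0.00894% of 22365 genes were called. In M1 the unadjusted p was under 0.05 for 2 of the 9 members, Cat and Rac2, beside 16.4% of all genes. The fall of Cat in M1 was smaller in KpCKO by 0.97 (SE 0.17), in both cultures (0.78 and 1.16), with an unadjusted p of 0.00072 and an adjusted p of 0.11. The M1 difference of Rac2 was smaller in KpCKO by −0.50 (SE 0.16, unadjusted p = 0.016, adjusted p = 0.22). In M2 no member had an unadjusted p under 0.05. In data simulated from these arrays, 0% of genes with a 2-fold and 61.5% of those with a 4-fold difference of M1 responses were recovered. A 2-fold difference of responses could thus be missed. These percentages are averages over randomly picked genes with unlike noise, so they do not say what was detectable for Cat itself.

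The wider NADPH oxidase system was described by 24 further genes of oxidase homologues, assembly factors and regulators, of which 21 had a probe and 19 were tested. In WT M1 against Con 12 were higher and 2 lower, where 34.5% and 28.7% of all genes were, with a median of 0.54 beside 0.13 over all genes, but under quantile normalization 6 were higher and 5 lower, with a median of 0.03. The largest rises were of Nox1, a homologue of Cybb, at least 5.03-fold (adjusted p = 0.00043), and of Duoxa2, a maturation factor of the dual oxidase, at least 4.11-fold (adjusted p = 0.00013), both of them dim and not well above background in Con. After normexp background correction neither was called (adjusted p = 0.057 each). The largest falls were of Prkcb, a protein kinase C, by −1.18, and Dock2, an exchange factor for Rac, by −0.60. In KpCKO M1 11 were higher and 2 lower, where 24.8% and 25.4% of all genes were. They included Nox1 (at least 3.01-fold) and Duoxa2 (at least 1.95-fold, above background on 1 of 2 M1 arrays), of which neither was called after normexp (adjusted p = 0.31 and 0.55), with Dock2 at −0.68 and Vav3, another exchange factor for Rac, at −0.35. The Vav3 call was also lost after normexp (adjusted p = 0.15). Under quantile normalization this count was 5 higher and 3 lower.

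In M2, 2 of the 19 were higher and 2 lower in WT, where 16.8% of all genes were called. Prkcd, a kinase that phosphorylates Ncf1, rose by 1.94 in WT and rose 4.01-fold in KpCKO, and Duox1 rose by 0.77 in WT. Vav3 fell by −1.11 in WT and −0.96 in KpCKO, and Pak1, a Rac-activated kinase, fell by −0.62 in WT. The Pak1 call was lost under median scaling (adjusted p = 0.059) and after normexp (adjusted p = 0.074). In KpCKO M2 2 were higher, Prkcd and the dim Duoxa2 (at least 1.25-fold, above background on 1 of 2 arrays and not called after normexp), and 1 was lower, where 10.2% of all genes were called.

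Between the genotypes, 2.21% of all genes were called in Con, 16.0% in M1, 1.93% in M2 and 17.2% in the mean of the 3 stimuli. The calls in this list fell on regulators. In Con 2 were higher in KpCKO, the proton channel Hvcn1 by 1.73 and Prkcb by 0.86, and Vav3 was lower by −0.82. This Vav3 call was lost after normexp (adjusted p = 0.090). In M1 2 were higher and 4 lower, with Hvcn1 at 2.26, Prkcb at 1.81 and Vav3 at −1.15. The call of Duoxa2 as lower there rests on a probe above background on 1 of 2 KpCKO arrays and was lost after normexp (adjusted p = 0.45). In M2 1 was higher and 1 lower, Prkcb at 0.86 and Vav3 at −0.66, the latter not called after normexp (adjusted p = 0.17). Over the mean of the 3 stimuli 3 were higher and 4 lower, with Hvcn1 at 1.76, Prkcb at 1.18, Vav3 at −0.88 and Pak1 at −0.41, and the list median was −0.18 beside −0.02 over all genes. Pak1 was not called there after normexp (adjusted p = 0.063).

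A list of 15 further genes for superoxide and peroxide removal had a probe for 14 and a test for 13. In WT M1 2 were higher and 5 lower, with a median of −0.18 beside 0.13 over all genes, so that 7 of the 13 were called where 63.2% of all genes were. The peroxiredoxins Prdx5 and Prdx1, which reduce peroxides, rose by 3.42 and 2.29 in WT M1 and by 2.72 and 1.49 in KpCKO M1. Gpx4, the lipid peroxide reductase, differed by −2.77 in WT M1, but by −0.77 in culture 1 and −4.78 in culture 2, and Ccs, the copper chaperone of Sod1, fell by −1.05. In KpCKO M1 3 were higher and 3 lower, where 50.2% of all genes were called, with Ccs at −0.70 and the secreted Gpx3 at −0.55. In M2 none was higher, and Prdx1 (−0.64) and Prdx5 (−0.60) were lower in WT and Prdx5 (−0.49) in KpCKO, where 16.8% and 10.2% of all genes were called. Prdx1 in WT and Prdx5 in KpCKO were not called after normexp (adjusted p = 0.070 and 0.14). Prdx5 in KpCKO was also lost under median scaling (adjusted p = 0.052).

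Between the genotypes every call in this list was higher in KpCKO under the main scaling, while under quantile normalization 1 gene was called lower in the mean of the 3 stimuli. In Con these were Prdx6 (1.70) and Prdx1 (1.33), in M1 Prdx6 (2.54) and in M2 Prdx6 (1.48) and Prdx1 (1.47). Over the mean of the 3 stimuli 3 were higher and none lower, with Prdx6 at 1.91 and Prdx1 at 1.11, and the list median was 0.15 beside −0.02 over all genes. Of all genes, 2.21% were called in Con, 16.0% in M1, 1.93% in M2 and 17.2% in the mean. Like Cat, Prdx6 was higher in KpCKO in both cultures under each stimulus.

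**Figure D5:**
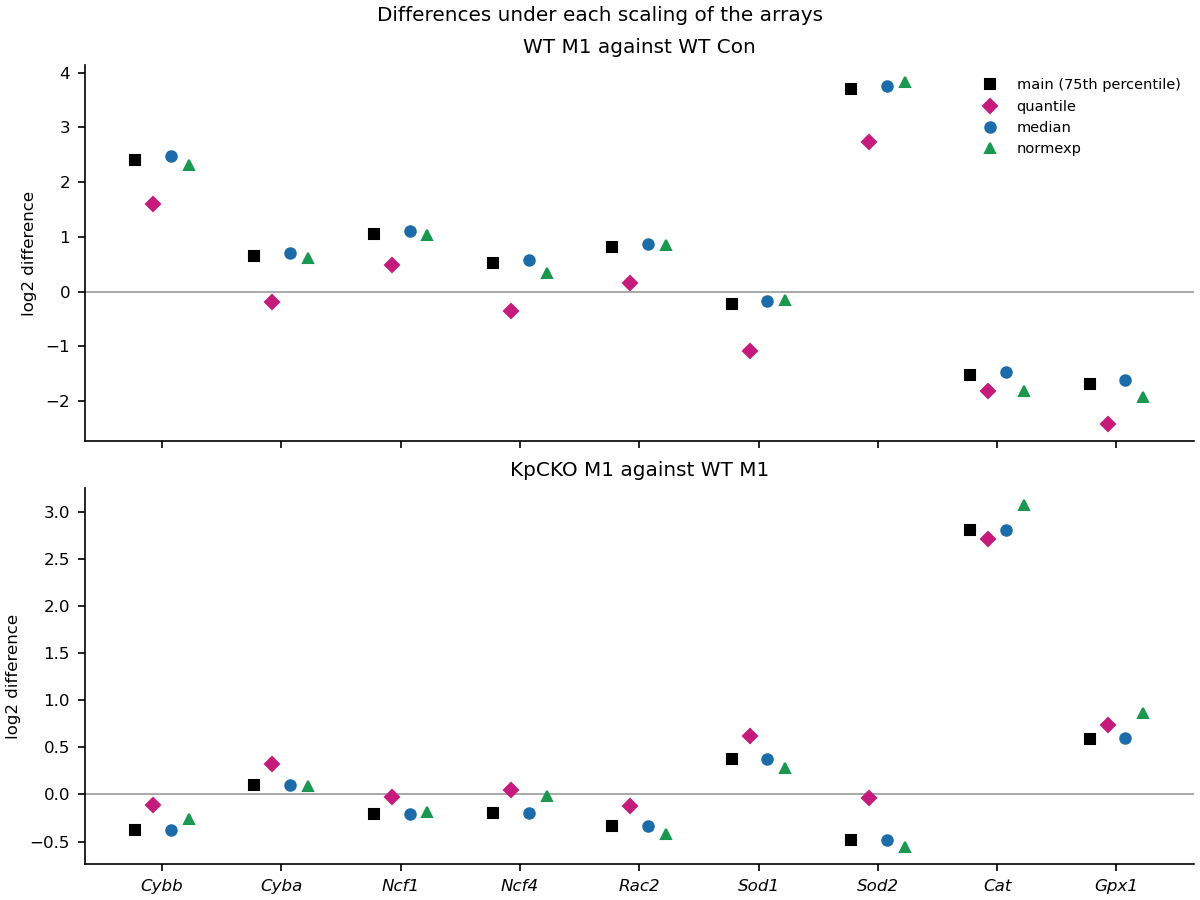
Difference (log2 units) of each gene between WT M1 and WT Con (upper) and between KpCKO M1 and WT M1 (lower) under the main scaling to the 75th percentile, quantile normalization, scaling to the median, and normexp background correction. Cyba and Ncf4 lay above 0 in WT M1 under the main scaling and at −0.19 and −0.36 under quantile normalization, and Cat lay between 2.71 and 3.07 in the lower panel.

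Markers of other cells were read beside these results, since neutrophils also carry the oxidase, and since in bulk RNA fewer cells of a type and less RNA per cell cannot be told apart. Of 13 markers of neutrophils and their precursors, 12 had a probe, 8 were above background on 12 of 12 arrays, and Elane, a defining granule gene of the precursors, was above background on none. Their summed signal was 13.3 to 18.4 times the 75th percentile in culture 1 and 6.29 to 10.2 times in culture 2, with both genotypes across each range. Of the oxidase genes Ncf1, Ncf4 and Rac2 were higher in culture 2 in 6 of 6 groups (by medians of 0.34, 0.38 and 0.33) and Cybb in 5 of 6 (median 0.22), whereas Cyba was higher there in 0 of 6 (median −0.22). The share of all genes with such a run was not computed, and differences between the cultures correlated between groups over all genes (median 0.342). Whether the oxidase genes follow the neutrophil signal was not tested. Culture and sex of the mice cannot be told apart. Over the mean of the 3 stimuli the neutrophil collagenase gene Mmp8 was higher in KpCKO by 2.14 and Mpo by 1.06, Retnlg was called lower on a probe above background on 6 of 12 arrays, and 8 markers were not called. Of all genes, 17.2% were called there. Of 5 fibroblast markers, 1 was called lower in KpCKO and 4 were not called. Their summed signal was 22.1 to 52.9 times the 75th percentile. The fibroblast gene Dcn measured 0.55 and 0.88 in WT Con and −0.84 and −3.14 in KpCKO Con. None of the 5 B and T cell markers tested was called. Of the 8 macrophage markers tested 4 were lower in KpCKO, where 8.55% of all genes were, with Cd14 at −1.12, Fcgr1 at −0.85, Lyz2 at −0.71 and Adgre1 at −0.24. Lyz2 encodes lysozyme M, whose locus drives the Cre of the KpCKO mice. Its difference therefore cannot be told apart from an effect of the Cre allele. The part of these shifts in the genotype differences of the oxidase and removal genes was not tested.

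The profile of each member over the 12 arrays was set against 12108 genes with a symbol that were above background on all of them. Since Con, M1 and M2 differ strongly, such likeness mostly reflects the stimulus, and the Pearson correlations are a description over arrays that share slides and mice. The closest genes were Fam102b (r = 0.994) and Trps1 (0.992) for Cybb, Arl5c (0.986) and Ifit1 (0.982) for Ncf1, and Ifi205 (0.998) and Nod1 (0.997) for Sod2. For Cat they were Olfr1153 (0.990) and Creg1 (0.988), and for Gpx1 Pygl (0.995) and Nhej1 (0.991). Those of Cyba were 4933430I17Rik (0.977) and Pkm (0.975), those of Ncf4 Dhx35 (0.953) and Lcat (0.930), those of Rac2 Gfm2 (0.964) and Brd7 (0.963), and those of Sod1 Atp8a2 (0.972) and Cep70 (0.969).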

How the data were processed

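The authors hybridized RNA of 12 samples to one-colour arrays and deposited Agilent Feature Extraction 10.7.3.1 files with the background-subtracted intensity, median signal and flags of 43379 spots. They also deposited a matrix of log2 values, used as an alternative, which equals these intensities scaled to the 75th percentile and centred per probe. The annotation paired 26690 probes with 18217 symbols. Here intensities without outlier spots were averaged per probe, log2-transformed and scaled to the 75th percentile of each array, with a gene represented by its brightest probe. Of 32301 genes, 22367 were above background on both arrays of a group. They were tested with limma 3.58.1 (R 4.3.3) on 6 groups with culture as a block, 5 residual degrees of freedom and Benjamini-Hochberg adjustment. Only 2 arrays per group limit the precision. The p-values measure how far differences between groups vary between the 2 cultures, after a shift common to a culture is removed. The main fit treats the arrays of a mouse as independent, so they do not measure the spread between mice. Where a level was not well above background in a group, "at least" folds were set against the lowest signal above background.

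Culture pairs the samples, since each held 1 mouse of either genotype, and deviations from the group means correlated between same-numbered arrays in all 15 pairs of groups (0.162 to 0.597, median 0.342). The 9 genes, the lists, the markers and the tests were chosen with earlier results of these data known. Beyond the 9, the text names Keap1, Nqo1, Nos2 and Arg1 as checks and the 2 largest rises and falls among the called genes of each list and comparison. It also names the macrophage and neutrophil markers called in the mean genotype comparison with Elane and Dcn, and the 2 genes most correlated with each member. Alternatives were quantile and median scaling, normexp background correction, the authors' matrix, other filters, other probes, no block, mouse as a random block, only the groups compared, the methods' t-test and leaving out single arrays. In data simulated for KpCKO M1 against WT M1, 41.5% of genes changed 2-fold and 83% of those changed 4-fold were recovered among 22084 genes. The simulation changed far fewer genes than were called in the real comparison, so its recovery need not carry over. Noxo1, Duox2, Duoxa1, Gpx5, Cd68 and Ly6g were not analysed here. Upstream sequences are from RefSeq, GRCm38.p6, whereas the array files name mm9, so no coordinates were joined.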

Additional observations from a re-analysis of the deposited data

Results flagged for a closer look

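Rac2 had a genotype difference of opposite sign in Con and M1 cells. KpCKO minus WT was 0.12 and 0.20 in the 2 cultures of Con and −0.26 and −0.40 in the 2 cultures of M1. The difference between the 2 M1 responses was −0.50 on the log2 scale (limma, unadjusted p = 0.016, adjusted p = 0.22), and −0.51 on the second Rac2 probe (adjusted p = 0.20). Under quantile normalization it was −0.26 (adjusted p = 0.44).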

How the results depend on the processing

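With 2 arrays a group, all p-values rest on few residual degrees of freedom, stimulus cannot be told apart from slide, and probes near background give bounds only. Quantile normalization reversed 4 results, Cyba in M1 against Con (−0.19 in WT, −0.10 in KpCKO) and Ncf4 in the same comparisons (−0.36 and −0.045). The cause was not tested. The median difference of all genes between WT M1 and Con was 0.13 in the main scaling, −0.08 under quantile normalization, 0.18 under median scaling and 0.40 after normexp, and between KpCKO M1 and WT M1 −0.09, 0.00, −0.09 and −0.22. Of 90 member differences, 19 that were not called changed sign under some alternative, the largest of size 0.31.

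The number of members called was 8 in WT M1 against Con, 6 in WT M2 against Con, 7 in KpCKO M1 against Con, 5 in KpCKO M2 against Con, 1, 4 and 2 between genotypes in Con, M1 and M2, and 5 in the mean of the 3. In the paired design culture is the replicate block. Without the replicate block the count was 3 in WT M2 against Con, 2 in KpCKO M2 against Con and 1 in KpCKO against WT in M1 and in M2. With mouse as a random block no count moved by over 1.5 times. Normexp correction left 1 in KpCKO M2 against Con, 1 between genotypes in M1, 1 in M2 and 3 in the mean. Without a filter there were 2 in KpCKO M2 against Con and 1 between genotypes in M1 and in M2. Quantile and median scaling each left 1 between genotypes in M2. A fit of only the groups compared left 4 in KpCKO M1 against Con and 0 in KpCKO M2 against Con and between genotypes in Con, M1 and M2, where the number of degrees of freedom is smaller. The methods' t-test after adjustment called 3 in WT M1 against Con and 0 in every other comparison of 2 groups. Unadjusted it called 3 in KpCKO M1 against Con, 2 in KpCKO M2 against Con and 2 between genotypes in Con.

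With single arrays left out, the count ranged from 7 to 8 in WT M1 against Con, 2 to 3 in WT M2, 5 to 7 in KpCKO M1, 0 to 1 in KpCKO M2, 1 to 1 between genotypes in Con, 1 to 2 in M1, 1 to 1 in M2, 3 to 4 in the mean and 0 to 0 for either difference of responses. The genotype differences of Cat were called in each of these.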
